A study of Mus musculus with 15 samples.

Results

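The genes described here carry the signal of tumour necrosis factor (TNF) receptors to the transcription factor NF-kB. They were chosen by symbol: every probe set that the array's annotation assigns to 1 of 10 named genes was taken, across all 4 groups of arrays. Of the 10, 8 had a probe set, giving 13 probe sets among the 22626 tested and 8 genes among the 12393 measured. They were the receptors Tnfrsf1a and Tnfrsf10b, the adaptor Traf2, the ubiquitin ligases Birc2 and Birc3, the NF-kB subunit Rela, the NF-kB inhibitor Nfkbia and the ubiquitin-editing enzyme Tnfaip3. Ripk1 and Nfkb1 were not analysed here. Nfkbia had 4 probe sets, Tnfrsf10b and Birc3 had 2 each, and the other 5 genes had 1 each.

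In this pathway a trimeric ligand brings receptors together, and adaptors of the TRAF family recruit the ubiquitin ligases cIAP1 (Birc2) and cIAP2 (Birc3) to them. The ubiquitin chains made there activate the IKK kinases, which mark IkappaB-alpha (Nfkbia) for destruction and so release dimers of Rela into the nucleus. Nfkbia and Tnfaip3 are themselves NF-kB target genes, and their proteins shut the pathway off again. CD95, the receptor of the ligand used here, belongs to the same receptor family and is best known for inducing apoptosis, although it can also signal to NF-kB.

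The cells were primary neural stem cells from female mice aged 6 weeks (strain given as C57/B16), grown as neurospheres, which are free-floating clusters of cells. Treated cultures were stimulated with CD95L-T4, a trimerised CD95 ligand construct, and control cultures were not. At 48 h RNA was prepared as total RNA or as polysomal RNA, which is the mRNA found in complexes with many ribosomes. Total RNA was measured on 4 arrays of control and 4 of CD95L-T4 cultures, and polysomal RNA on 4 arrays of control and 3 of CD95L-T4 cultures. Groups were read from the sample titles, which call the replicates biological. No label says whether they came from separate mice or cultures, so p-values measure only the spread between these samples. Total RNA was isolated with a column kit and labelled total RNA, whereas polysomal RNA was isolated with phenol and chloroform and labelled polyA RNA. RNA fraction, isolation method and molecule label cannot be told apart in any comparison of polysomal with total RNA.

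All values are deposited log2 values of Affymetrix mouse arrays, comparable between arrays for 1 probe set but not, as amounts of RNA, between probe sets. Percentiles and the words dim and bright give only the rank of a probe set's mean signal among all probe sets. Array medians were 6.92 to 6.98 in total and 6.83 to 6.88 in polysomal RNA, and arrays of a group correlated at 0.994 to 0.998. The 3' minus 5' difference of the beta-actin control probe sets, a sign of RNA length, was 0.28 to 0.57 in total and 0.59 to 1.03 in polysomal arrays; its part in differences between fractions was not tested. Replicate 2 of CD95L-T4 polysomal RNA had the highest mean of the control transcripts added to the samples (9.10, against 6.92 to 8.35 in the arrays of the other 3 groups), and calls of the named genes that depended on it are given with and without it. Of 10 measured neural stem cell markers, 8 lay above the median of all probe sets. So did 2 of 7 neuron, 2 of 5 astrocyte and 2 of 6 oligodendrocyte lineage markers. None of 12 microglial, 7 endothelial or 6 fibroblast markers did, the brightest lying at percentiles 40, 45 and 31.2.

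The promoters of Nfkbia and Tnfaip3 are shown because these genes report on NF-kB activity by being its targets. Both were taken from RefSeq (GRCm38.p6), as the 250 bases before the first annotated start, 5' to 3' on the gene's strand. Capitals mark matches to the kappaB consensus, the sequence that NF-kB dimers bind, searched on both strands. The Nfkbia window is chr12:55492648-55492897 and the Tnfaip3 window is chr10:19015411-19015660, both on the minus strand.
Nfkbia: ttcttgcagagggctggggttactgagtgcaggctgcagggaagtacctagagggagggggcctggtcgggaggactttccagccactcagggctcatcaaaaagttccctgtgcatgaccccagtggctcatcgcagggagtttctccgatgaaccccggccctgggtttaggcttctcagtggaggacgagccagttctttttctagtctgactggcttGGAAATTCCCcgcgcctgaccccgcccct
Tnfaip3: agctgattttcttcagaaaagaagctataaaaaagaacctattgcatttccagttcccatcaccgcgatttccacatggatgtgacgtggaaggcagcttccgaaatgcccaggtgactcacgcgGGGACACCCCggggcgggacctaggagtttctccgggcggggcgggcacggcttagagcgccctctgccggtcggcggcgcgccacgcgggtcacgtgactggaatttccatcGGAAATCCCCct
The single match of Nfkbia lies 29 to 20 bases upstream of its start, and those of Tnfaip3 lie 125 to 116 and 12 to 3 bases upstream. Of all 32851 promoter windows of this length, 3.9% held at least 1 match and 0.831% at least 2. Of the 10 named genes, 8 had a promoter in the table, with 11 windows in all, and the matches were in 2 of these. The window of Birc3, described below as an NF-kB target, held 0 matches. So did the window of the second annotated start of Tnfaip3. A match describes letters in the window and does not show binding.

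CD95L-T4 left the 13 probe sets of these genes without a detectable change in total RNA. No probe set passed an adjusted p of 0.05 in limma (0 of 13; background 0% of all probe sets), and 0 of 13 had an unadjusted p under 0.05, against 3.74% of all probe sets. The log2 differences ran from -0.09 to 0.18 with a median of 0.06, against 0.01 over all probe sets. Every one of the 13 95% intervals lay within a 1.5-fold change in either direction, the widest reaching 1.32-fold. Larger changes in these array signals were thus outside the intervals. At low signal, as for Birc3, Tnfrsf10b and Tnfaip3, an interval on the signal need not bound the change in RNA. Intervals this narrow were common, as 98.2% of all probe sets lay within 1.5-fold. In bulk cultures, fewer cells of a type and less RNA per cell cannot be told apart.

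**Figure D1:**
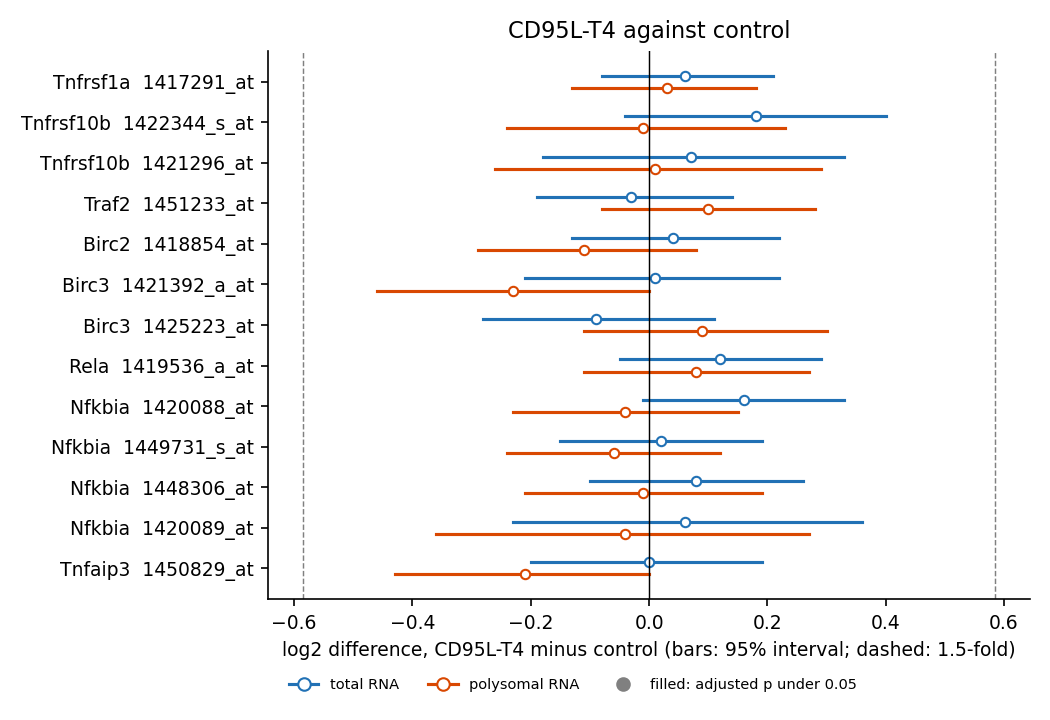
Log2 difference between CD95L-T4 and control cultures for each of the 13 probe sets (points) with its 95% interval (bars), in total RNA (blue) and polysomal RNA (orange); dashed lines mark a 1.5-fold change. Every point is open because no adjusted p was under 0.05, and every bar ends inside the dashed lines.

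Among the receptors, Tnfrsf1a, the main receptor for TNF, read 9.48, 9.46, 9.46 and 9.44 in the control total arrays and 9.45, 9.53, 9.57 and 9.55 in the CD95L-T4 total arrays. Treated replicates 2, 3 and 4 lay above every control and replicate 1 lay among them, with a difference of 0.06 ± 0.07 (SE; limma adjusted p = 0.997). Tnfrsf10b, the mouse receptor for the death ligand TRAIL, was dim. Its probe set 1422344_s_at, at percentile 23.1 of brightness, read 3.96 to 4.49 in control and 4.32 to 4.53 in CD95L-T4 total arrays. That difference, 0.18 ± 0.10 (SE) and limma adjusted p = 0.997, was the highest of the 13, and the ranges overlapped.

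The adaptor Traf2 and the ligase Birc2 were mid to bright probe sets, at percentiles 69.4 and 65.7. Traf2 read 8.24, 8.36, 8.39 and 8.32 in control and 8.28, 8.28, 8.29 and 8.36 in CD95L-T4 total arrays, a difference of -0.03 ± 0.08 (SE). Birc2 read 8.11, 8.01, 7.95 and 7.88 in control and 8.00, 8.08, 8.05 and 8.00 in CD95L-T4 total arrays, a difference of 0.04 ± 0.08 (SE). In both genes the treated arrays fell inside the range of the controls. Birc3, an NF-kB target that lies next to Birc2 in the genome with 0 annotated genes between them, was at percentiles 16.8 and 16.0 and differed by 0.01 and -0.09.

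Rela encodes p65, the subunit that activates transcription. It read 8.67, 8.46, 8.48 and 8.43 in control and 8.49, 8.69, 8.64 and 8.70 in CD95L-T4 total arrays. In 3 of 4 treated arrays it was above the control mean, but control replicate 1 lay among these, and the difference was 0.12 ± 0.08 (SE; limma adjusted p = 0.997). The brightest Nfkbia probe set, 1420088_at, read 9.94, 9.90, 9.89 and 10.02 in control and 10.01, 10.06, 10.06 and 10.26 in CD95L-T4 total arrays. Only control replicate 4 overlapped the treated arrays, and the difference was 0.16 ± 0.08 (SE; limma adjusted p = 0.997). The other 3 Nfkbia probe sets differed by 0.02 to 0.08. Tnfaip3 (A20) read 5.02, 4.78, 4.91 and 5.17 in control and 4.91, 4.89, 5.02 and 5.04 in CD95L-T4 total arrays, with means of 4.97 and 4.96. Both feedback inhibitors were thus at levels in treated cultures that overlapped those of the controls.

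On polysomes CD95L-T4 again gave 0 calls among the 13 probe sets (background 0%), and 0 of 13 had an unadjusted p under 0.05, against 9.65% of all probe sets. Differences ran from -0.23 to 0.10, with a median of -0.01, against 0.01 over all probe sets. All 13 intervals again lay within a 1.5-fold change, as did 95.9% of those of all probe sets, and the widest of the 13 reached 1.38-fold. The 2 lowest differences belonged to Birc3 and Tnfaip3, both NF-kB targets and both dim.

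Birc3 probe set 1421392_a_at read 4.01, 4.18, 4.35 and 4.13 in control and 3.96, 3.98 and 3.87 in CD95L-T4 polysomal arrays. The groups did not overlap, treated lower, as for 2.83% of all probe sets; the difference was -0.23 ± 0.11 (SE; limma adjusted p = 0.516). The other Birc3 probe set, 1425223_at, went the other way, reading 3.69, 3.85, 3.94 and 3.88 in control and 3.90, 4.01 and 3.89 in treated arrays. Its ranges overlapped, and its difference was 0.09 ± 0.10 (SE). Tnfaip3 read 5.36, 5.16, 5.09 and 5.26 in control and 4.87, 5.20 and 4.94 in CD95L-T4 polysomal arrays. Treated replicates 1 and 3 lay below every control array and replicate 2 lay among them, giving -0.21 ± 0.10 (SE; limma adjusted p = 0.518). Without that replicate the Tnfaip3 difference was -0.31 ± 0.10 (SE; adjusted p = 0.0862). None of the 13 was called without it, and 2 of 13 had an unadjusted p under 0.05, against 21.7% of all probe sets in that fit. Over the whole array, 717 of 22626 probe sets were then called higher and 669 lower, against 0 with all arrays. Against so small a share, 0 of 13 does not set these genes apart.

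The remaining genes showed less on polysomes. Traf2 read 8.61, 8.59, 8.71 and 8.66 in control and 8.88, 8.84 and 8.50 in CD95L-T4 polysomal arrays, with 2 treated arrays above and 1 below every control. Birc2 read 8.49, 8.53, 8.44 and 8.43 in control and 8.14, 8.41 and 8.54 in treated arrays, the treated values spreading over and beneath the controls. Their differences were 0.10 ± 0.09 and -0.11 ± 0.09 (SE). Rela differed by 0.08, Tnfrsf1a by 0.03, the 2 Tnfrsf10b probe sets by -0.01 and 0.01, and the 4 Nfkbia probe sets by -0.06 to -0.01, all with adjusted p of 0.8 or more in limma.

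The test of whether CD95L-T4 acted differently in the fractions, the polysomal effect minus the total RNA effect, called 0 of 13 (background 0%). At an unadjusted p under 0.05 there were 0 of 13, against 4.38% of all probe sets. The differences of effects ran from -0.24 for Birc3 1421392_a_at to 0.18 for Birc3 1425223_at, the 2 probe sets of 1 gene. Of the 13, 11 were negative, among them all 4 of Nfkbia and the 2 of Tnfrsf10b. Probe sets of 1 gene are not independent, and the share of negative values over all probe sets was not counted. The median of the 13 was -0.09, against -0.01 over all probe sets. Adjusted p-values were 0.897 to 0.968, and the widest interval reached 1.47-fold. This contrast uses the same arrays as the effects in each fraction. Without CD95L-T4 polysomal replicate 2 the count of calls stayed 0, and 3 of 13 had an unadjusted p under 0.05, against 15.6% of all probe sets in that fit. These 3 were Nfkbia 1420088_at at -0.29, Nfkbia 1420089_at at -0.34 and Tnfaip3 at -0.31, chosen for mention after their values were seen, with limma adjusted p of 0.231, 0.316 and 0.282.

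The fractions differed far more than the treatments. In control cultures Nfkbia, Birc2, Tnfrsf10b and Traf2 read higher in polysomal than in total RNA and Tnfrsf1a lower. The size was largest for Nfkbia, at 1.62- to 2.63-fold across its 4 probe sets, followed by Birc2 at 1.40-fold. Tnfrsf10b, on 2 dim probe sets, was at 1.28- and 1.27-fold and Traf2 at 1.24-fold, while Tnfrsf1a was 1.31-fold lower. Array medians were nearly equal (6.83 to 6.98), and the method of normalization is not given. Each value is therefore read relative to the other probe sets of its array. A difference between fractions in total mRNA cannot be read from these values. In all, 11 of 13 probe sets were called higher and 1 lower (background 56.1% called in either direction, 29.8% higher and 26.3% lower). The groups did not overlap for 7 higher probe sets (background 28.6%) and 1 lower (background 26.0%). The median over the 13 was 0.34, against 0.06 over all probe sets; the Nfkbia probe sets share their gene and are not independent. With array medians set equal, the calls over the whole array moved from 6745 higher and 5959 lower to 8894 and 5162.

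In CD95L-T4 cultures 7 of 13 probe sets were called (background 51.3%), 6 higher (background 26.7%) and 1 lower (background 24.6%). The same 6 and 1 did not overlap (background 24.9% higher and 22.8% lower). Of the 6 higher probe sets, 4 belonged to Nfkbia. By gene, on the brightest probe set, 3 of 8 were called higher and 1 lower, against 29.6% and 21.8% of all genes. With equal array medians the calls over the whole array moved from 6044 higher and 5559 lower to 7866 and 4799 there. The control and CD95L-T4 comparisons of fractions compare different arrays, but both use the spread estimated from all arrays. The test of their difference is the one given above, with 0 calls. Some markers of other cell types were also higher on polysomes. In control cultures 4 of 12 microglial markers, 3 of 7 endothelial and 1 of 6 fibroblast markers were called higher and 0 of these 3 lists lower. These counts are to be read against 33.5% of all genes called higher there and 23.2% lower. In CD95L-T4 cultures 1 microglial marker was called higher and 1 lower. Of the endothelial markers 1 was called higher and 0 lower there, and 0 fibroblast markers were called (background 29.6% of genes higher and 21.8% lower). The mean of the microglial list was 4.19 to 4.29 in control total and 4.29 to 4.42 in control polysomal arrays, that of the endothelial list 4.54 to 4.61 and 4.69 to 5.01, and that of the fibroblast list 4.14 to 4.26 and 4.22 to 4.38. Their part in the differences of the 13 probe sets was not tested.

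**Figure D2:**
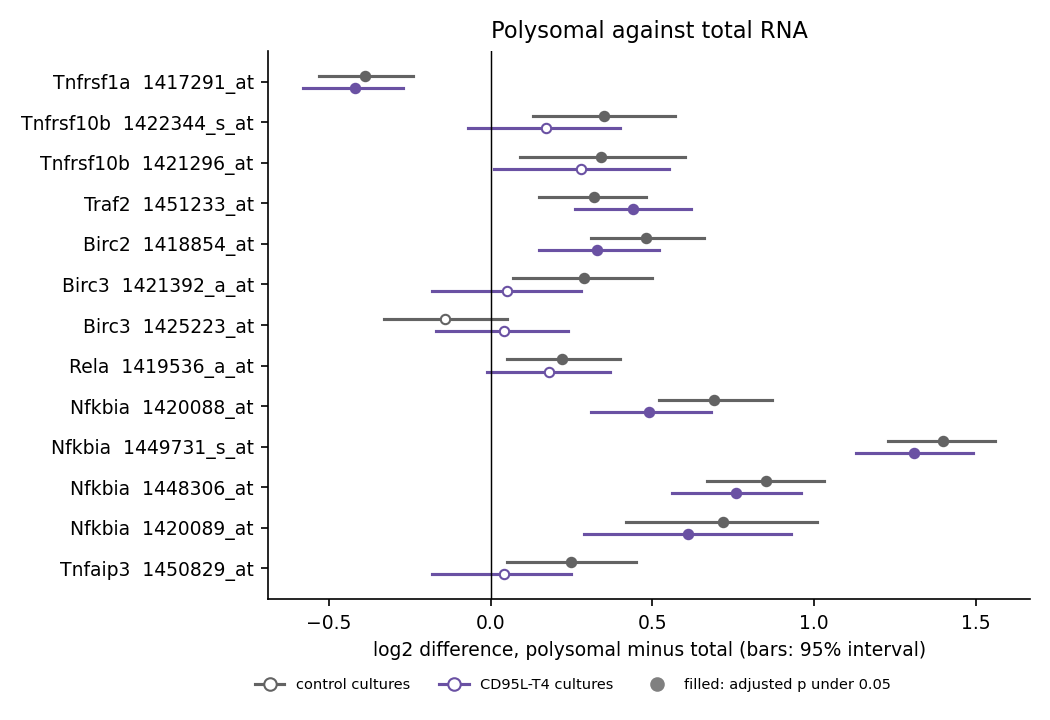
Log2 difference between polysomal and total RNA for each of the 13 probe sets (points) with its 95% interval (bars), in control (grey) and CD95L-T4 (purple) cultures; filled points have an adjusted p under 0.05. The 4 Nfkbia probe sets, Birc2 and Traf2 lie right of 0 and Tnfrsf1a lies left of 0 in both kinds of culture.

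The receptor Tnfrsf1a was the one gene of the 8 called lower. It read 9.07, 9.11, 9.07 and 9.05 in the control polysomal arrays, against the total RNA values of 9.44 to 9.48 given above. Every polysomal array lay below every total array, with a difference of -0.39 ± 0.07 (SE; limma adjusted p = 8.21e-05). In CD95L-T4 cultures the polysomal arrays read 9.01, 9.26 and 9.03, against 9.45 to 9.57 in total RNA. These again did not overlap, with replicate 2 the nearest to total RNA, and the difference was -0.42 ± 0.07 (SE; adjusted p = 7.39e-05). Tnfrsf10b went the other way in control cultures. Probe set 1422344_s_at read 4.56, 4.48, 4.75 and 4.56 on polysomes and 4.32, 4.49, 4.17 and 3.96 in total RNA, and 1 total array reached the polysomal range (0.35 ± 0.10 SE; adjusted p = 0.00787). Probe set 1421296_at differed by 0.34 ± 0.12 (SE; adjusted p = 0.0216). In CD95L-T4 cultures the 2 probe sets differed by 0.17 and 0.28 and neither was called; without polysomal replicate 2 the second stood at 0.15.

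Traf2 was higher on polysomes in both kinds of culture. Its 4 control polysomal arrays (8.59 to 8.71) lay above its 4 control total arrays (8.24 to 8.39), a difference of 0.32 ± 0.08 (SE; limma adjusted p = 0.00258). In CD95L-T4 cultures the polysomal range was 8.50 to 8.88 and the total range 8.28 to 8.36, a difference of 0.44 ± 0.09 (SE; adjusted p = 0.000325). Birc2, its ligase partner, also did not overlap between fractions. It differed by 0.48 ± 0.08 (SE; adjusted p = 5.94e-05) in control and 0.33 ± 0.09 (SE; adjusted p = 0.0041) in CD95L-T4 cultures, where polysomal replicate 1, at 8.14, came nearest to the highest total array, at 8.08.

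The probe sets of Birc3 disagreed. In control cultures 1421392_a_at read 4.01 to 4.35 on polysomes and 3.83 to 3.95 in total RNA, without overlap (0.29 ± 0.10 SE; limma adjusted p = 0.023). Probe set 1425223_at read 3.69 to 3.94 on polysomes and 3.84 to 4.06 in total RNA, with overlap, and was not called (-0.14 ± 0.09 SE; adjusted p = 0.203). With quantile normalization over all arrays it was called lower (-0.22; adjusted p = 0.0202), opposite to the first. Averaged, the 2 gave 0.07 (adjusted p = 0.502). In CD95L-T4 cultures they differed by 0.05 and 0.04. No direction can therefore be given for the gene. Both lay among the dimmest 25% of probe sets, of which 15.2% were called higher and 5% lower in control cultures.

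Rela was called higher on polysomes in control cultures by a small margin. It read 8.64, 8.68, 8.82 and 8.80 on polysomes, and control total replicate 1, at 8.67, fell among these while the other 3 total arrays lay below (0.22 ± 0.08 SE; limma adjusted p = 0.0284). In CD95L-T4 cultures it read 8.85, 8.65 and 8.94 on polysomes, overlapping the total arrays, and was not called (0.18 ± 0.09 SE; adjusted p = 0.0996).

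Nfkbia, the inhibitor that holds Rela in the cytoplasm, showed the largest difference of the 8 genes, on every probe set. Probe set 1449731_s_at read 7.64, 7.51, 7.44 and 7.60 in control total arrays and 9.17, 8.87, 8.87 and 8.86 in control polysomal arrays. In CD95L-T4 cultures it read 7.63, 7.55, 7.63 and 7.46 in total RNA and 8.87, 8.91 and 8.86 on polysomes. All 7 polysomal arrays lay above all 8 total arrays by more than 1 log2 unit. The difference was 1.40 ± 0.08 (SE; limma adjusted p = 2.76e-10) in control and 1.31 ± 0.09 (SE; adjusted p = 2.62e-09) in CD95L-T4 cultures.

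The other 3 Nfkbia probe sets moved the same way by less. Probe set 1448306_at read 7.57 to 7.71 in control total and 8.31 to 8.61 in control polysomal arrays (0.85 ± 0.09 SE). Probe set 1420089_at read 5.78 to 6.11 and 6.51 to 6.82 in the same groups (0.72 ± 0.14 SE). The brightest, 1420088_at, read 9.89 to 10.02 and 10.53 to 10.72 (0.69 ± 0.08 SE), again without overlap. In CD95L-T4 cultures these 3 differed by 0.76, 0.61 and 0.49, all called and none overlapping. The 1420089_at arrays spread most there, with polysomal replicate 2 at 7.11 and the other 2 at 6.34 and 6.48. Without that replicate 1420089_at differed by 0.38 (adjusted p = 0.0179) and 1420088_at by 0.40 (adjusted p = 0.00108). With all arrays the size for this gene ranged from 0.49 to 1.40 with the probe set and the culture, and all 8 values were positive.

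Tnfaip3, the other feedback inhibitor, differed little between fractions. In control cultures its polysomal arrays (5.09 to 5.36) overlapped the total arrays (4.78 to 5.17), and it was called by a small margin (0.25 ± 0.09 SE; limma adjusted p = 0.0342). In CD95L-T4 cultures the difference was 0.04 ± 0.10 (SE; adjusted p = 0.786). Polysomal replicate 2 lay above its total arrays (4.89 to 5.04), replicate 3 among them and replicate 1 just below.

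**Figure D3:**
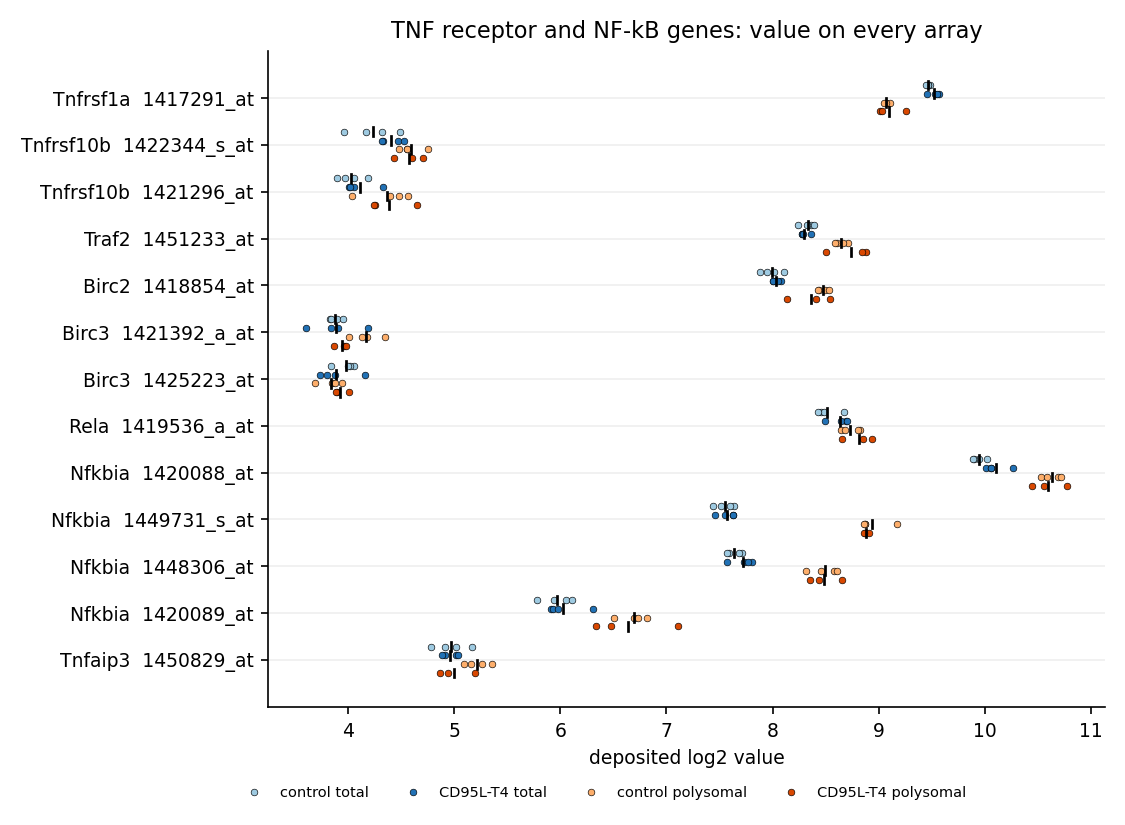
Deposited log2 value on every array (points) and group mean (black ticks) for the 13 probe sets, coloured by group: control total, CD95L-T4 total, control polysomal and CD95L-T4 polysomal. Control and CD95L-T4 points of 1 fraction overlap for every probe set except Birc3 1421392_a_at on polysomes, whereas the blue (total) and orange (polysomal) points separate for Tnfrsf1a, Traf2, Birc2 and all 4 Nfkbia probe sets.

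The 7 probe sets of Nfkbia (4), Birc2, Traf2 and Tnfrsf1a were called in both comparisons and under every alternative tried in which they were tested. In control cultures 1 more, Tnfrsf10b 1422344_s_at, was called under every such alternative. The other 4 control calls, for Birc3 1421392_a_at, Rela, Tnfaip3 and Tnfrsf10b 1421296_at, were lost in at least 1. All 4 were lost without control total replicate 2, leaving 8 calls, at differences of 0.27, 0.21, 0.18 and 0.32. Leaving out control total replicate 1, 3 or 4 or control polysomal replicate 1, 3 or 4 each lost 1 to 3 of them, leaving 9 to 11 calls, and the lost ones then stood at 0.20 to 0.31 with adjusted p of 0.0547 to 0.106. In CD95L-T4 cultures Rela was called without polysomal replicate 2 (0.26; adjusted p = 0.0231). Tnfrsf10b 1421296_at was called there without total replicate 3 (0.36; adjusted p = 0.033) and without control polysomal replicate 2 (0.28; adjusted p = 0.0451).

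The rest of the pathway was described from 6 lists of 136 genes, of which 118 were measured. CD95L-T4 called 0 of 118 in total RNA, in polysomal RNA and in the difference of effects, with 7, 11 and 6 at an unadjusted p under 0.05 (3.44%, 9.49% and 3.99% of all genes). In total RNA the smallest p-values of the lists belonged to Cd40lg (-0.23), Tnfrsf21 (-0.23), Tnip2 (0.14), Tab1 (0.16), Nfkbie (-0.31) and the chemokine gene Cxcl1 (0.24), each with a limma adjusted p of 0.997. On polysomes they belonged to Tnfsf11 (0.20), Tnfrsf12a (-0.32), Tnip2 (-0.20), Map3k8 (-0.36), Nfkbib (0.32) and the chemokine gene Cxcl10 (-0.40), with adjusted p of 0.466 to 0.534. Without CD95L-T4 polysomal replicate 2, Tnfsf11 stood at 0.09, while Tnfrsf12a (-0.46; adjusted p = 0.0427), Map3k8 (-0.43; 0.0496) and Nfkbib (0.48; 0.0201) passed, in the fit that called 717 probe sets higher and 669 lower. Tnfrsf12a is the receptor for TWEAK, Map3k8 the kinase Tpl2 and Nfkbib the inhibitor IkappaB-beta. In the difference of effects Ltb (-0.30), Tnfrsf12a (-0.28), Tnip2 (-0.34), Map3k8 (-0.42), Nfkbie (0.39) and Cxcl10 (-0.41) came first in their lists, each with an adjusted p of 0.897.

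Between fractions, 42 of the 118 genes were higher and 14 lower on polysomes in control cultures (47.5%, background 56.7% of genes), and 41 and 11 in CD95L-T4 cultures (44.1%, background 51.4%). These shares of calls in either direction were below the background. The shortfall was in the genes called lower, and the share called higher was not below its background. Of all genes, 33.5% were higher and 23.2% lower in control cultures, and 29.6% and 21.8% in CD95L-T4 cultures, and the counts by role are to be read against these. In control cultures the adaptors and ubiquitin enzymes had the highest median of the 6 lists, 0.43, against 0.10 over all genes. Of 22 such genes 15 were higher in control cultures and 1 lower. Otulin, which removes linear ubiquitin chains (0.92), and Ube2n, which builds lysine-63 chains (0.91), led the rise, and the A20 partner Tax1bp1 was lower (-0.64). In CD95L-T4 cultures 14 were higher and 1 lower, with Otulin at 0.97, the adaptor Tank at 0.79 and Tax1bp1 at -0.52, and the median was 0.35.

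Of 22 other receptors 2 were higher and 5 lower in control cultures, the lower ones near the background share and the higher ones below theirs. Their median was 0.08, against 0.10 over all genes. The interleukin-1 receptor subunit Il1rap (-1.17) and Tnfrsf19 (-0.84) were the lowest, and Tnfrsf12a (0.78) was the highest. In CD95L-T4 cultures 1 was higher and 4 lower, at -1.14, -0.86 and 0.50 for the same 3 genes. Among 15 ligands 2 were called in each comparison, all higher (background 33.5% of genes higher in control and 29.6% in CD95L-T4 cultures). The calls included Ltb (0.29) in control cultures, a dim probe set at percentile 6.43 of brightness. In CD95L-T4 cultures they were Tnfsf11 (0.28) and Cd40lg (0.24), both also dim and both lost under several alternatives. Without CD95L-T4 total replicate 4, polysomal replicate 2 or polysomal replicate 3, Tnfsf11 had an adjusted p of 0.0521, 0.161 and 0.0507. Without total replicate 1 or polysomal replicate 1, Cd40lg had 0.0581 and 0.095.

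**Figure D4:**
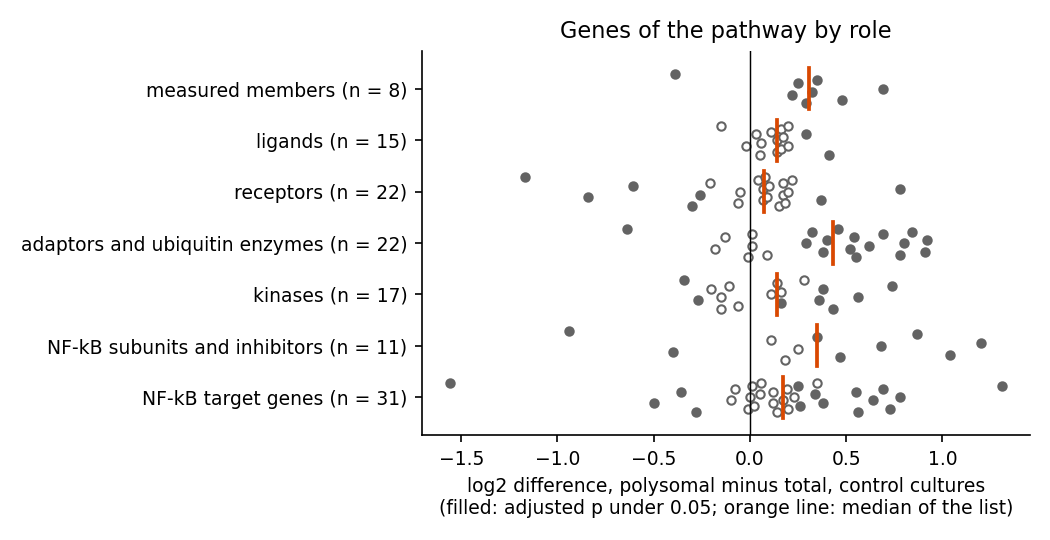
Log2 difference between polysomal and total RNA in control cultures for the 8 measured genes and for 6 lists of other pathway genes (points, 1 per gene, by its brightest probe set); filled points have an adjusted p under 0.05 and orange lines are medians. The adaptors and ubiquitin enzymes have the highest median of the 6 lists (0.43). The receptors have more filled points left of 0 (5 of 22) than right of it (2 of 22). Of all genes, 23.2% were called lower and 33.5% higher.

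Of 17 kinases 6 were higher and 2 lower in control cultures (background 33.5% and 23.2% of genes), with a median of 0.14. The kinases Map3k8 (0.74) and Map3k3 (0.56) were higher, and the IKK scaffold Ikbkg (-0.34) and the kinase Tbk1 (-0.27) were lower. Tbk1 lost its call without control polysomal replicate 4 (-0.23; adjusted p = 0.0511) and with equal array medians (-0.17; adjusted p = 0.0956). In CD95L-T4 cultures 6 were higher and 0 lower at the adjusted threshold (background 29.6% and 21.8% of genes), led by Map3k3 (0.54) and Map2k4 (0.46). Of the 17, 7 had an unadjusted p under 0.05.

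The list closest to Nfkbia and Rela was that of other NF-kB subunits and inhibitors. In control cultures 6 of its 11 genes were higher and 2 lower (background 33.5% and 23.2% of genes), with a median of 0.35. In CD95L-T4 cultures 7 were higher and 2 lower (background 29.6% and 21.8%), with a median of 0.56, there the highest of the 6 lists. Nkiras2, a small Ras-like protein that slows the destruction of IkappaB, was higher by 1.20 in control and 1.02 in CD95L-T4 cultures. Commd1, which promotes the removal of Rela, was higher by 1.04 and 0.92. Nkap, named as an NF-kB activating protein, was lower by -0.94 and -0.59, and Nfkb2, the precursor of p52, by -0.40 and -0.26. The Nfkb2 call in CD95L-T4 cultures was lost without total replicate 2 (-0.22; adjusted p = 0.0678) and without polysomal replicate 1 (-0.22; 0.0899). It was also lost with equal array medians (-0.17; 0.126) and with quantile normalization over all arrays (-0.19; 0.0886).

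Of 31 NF-kB target genes 11 were higher and 4 lower in both kinds of culture, with medians of 0.17 and 0.13. Background shares of all genes were 33.5% higher and 23.2% lower in control cultures, and 29.6% and 21.8% in CD95L-T4 cultures. Ier3, an early response gene, was higher by 1.31 in control and 1.11 in CD95L-T4 cultures, and the adhesion molecule Vcam1 by 0.78 and 0.87. The hyaluronan receptor Cd44 (-1.56 and -1.45) and the peptide transporter Tap1 (-0.50 and -0.58) were lower. The other 2 genes called lower in control cultures were the cytokines Csf1 (-0.36) and Il6 (-0.28), named after their values were seen.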

How the data were processed

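RNA of 15 neurosphere samples was measured on Affymetrix mouse arrays. The authors deposited log2 values normalised between arrays; array medians were 6.83 to 6.98, and the method, scale factor and centring are not given in the sources used here. Depth does not apply to arrays, and their number limits the precision. Of 22690 probe sets, 64 controls were left out; of all the rest, 20380 had 1 gene symbol in the platform annotation, 691 several and 1555 none. By gene identifier, 12369 of 12393 genes were found in RefSeq GRCm38.p6.

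The values were fitted in limma 3.58.1 (R 4.3.3). The model held all arrays and 1 coefficient per group, with 5 two-sided contrasts and Benjamini-Hochberg adjustment over 22626 probe sets (threshold 0.05). It was tested on simulated data. Groups came from sample titles, since the treatment label of treated samples names only the cells. A gene was represented by its brightest probe set where 1 value was needed. The members and lists were chosen with earlier results of these data known. Named from each list were the 2 largest rises and falls among called genes without overlap, or the gene of smallest p. Same-numbered arrays of different groups correlated at -0.23 to 0.20 in their deviations, so numbers were not taken to pair arrays. Alternatives were 3 scalings, 2 filters on dim probe sets, a trended and robust variance, fits of the compared groups alone, array weights, replicate blocks, the mean over a gene's probe sets and leaving out each array.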

Additional observations from a re-analysis of the deposited data

Results flagged for a closer look

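Of 39 groups of 4 arrays, 1 for each of the 13 probe sets and 3 groups, 3 had an array whose gap to its neighbour was large against the range of the group (Dixon's test at 95%); chance alone marks about 1 in 20. Nfkbia 1449731_s_at read 9.17 in control polysomal replicate 1, above 8.86 to 8.87 in the other 3. Tnfrsf10b 1421296_at read 4.33 in CD95L-T4 total replicate 3, above 4.01 to 4.06 in the others. Traf2 read 8.36 in CD95L-T4 total replicate 4, above 8.28 to 8.29.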

How the results depend on the processing

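Counts of called members under CD95L-T4 were 0 in both fractions and in the difference of effects under every alternative run. The precision of 3 or 4 arrays a group and the low signal of Birc3, Tnfrsf10b and Tnfaip3 limit what could be seen. For polysomal against total RNA, counts ran from 8 to 12 in control cultures (12 with all arrays) and from 7 to 8 in CD95L-T4 cultures (7) when 1 array was left out. Without the dimmest 50% of probe sets 7 were called in control cultures, because only 7 were tested. Quantile normalization over all arrays gave 11 there. It lost Tnfaip3 (limma adjusted p = 0.083) and Tnfrsf10b 1421296_at (0.0561) and gained Birc3 1425223_at, called lower. A trended variance also gave 11, losing Tnfaip3 (limma adjusted p = 0.0509). Equal array medians gave 9 in CD95L-T4 cultures. The replicate block gave 0, 0, 0, 12 and 7, as without it. The block changed no call.

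Small differences that were never called changed sign under some settings, and the cause was not tested. In total RNA Birc3 1421392_a_at (0.01) became -0.03 with either quantile normalization, -0.01 with equal array medians and -0.02 with array weights, and the mean of the Birc3 probe sets was -0.04. On polysomes the replicate block over all arrays gave 0.01 for Nfkbia 1448306_at and 1420089_at, and the block within each fraction gave 0.03 for the former. Array weights gave -0.02 for Tnfrsf10b 1421296_at and -0.01 for Tnfrsf1a. Tnfrsf10b came to 0.00 with quantile normalization (1422344_s_at), with equal array medians (1421296_at) and as the mean of both.

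Leaving out 1 array at a time, the CD95L-T4 difference in total RNA ran from -0.09 to 0.10 for Birc3 1421392_a_at, -0.02 to 0.06 for Nfkbia 1449731_s_at, -0.03 to 0.11 for Nfkbia 1420089_at, -0.07 to 0.06 for Tnfaip3 and 0.00 to 0.13 for Tnfrsf10b 1421296_at. On polysomes it ran from -0.20 to 0.00 for Birc2. For Nfkbia there it ran from -0.13 to 0.04 (1420088_at), -0.09 to 0.01 (1449731_s_at), -0.10 to 0.05 (1448306_at) and -0.28 to 0.11 (1420089_at). For the receptors it ran from -0.07 to 0.07 (Tnfrsf10b 1422344_s_at), -0.12 to 0.08 (Tnfrsf10b 1421296_at) and -0.06 to 0.07 (Tnfrsf1a). The difference of effects ran from -0.34 to 0.05 for Nfkbia 1420089_at, -0.10 to 0.04 for Rela, -0.19 to 0.01 for Tnfrsf10b 1421296_at and -0.12 to 0.01 for Tnfrsf1a. Polysomal against total RNA in CD95L-T4 cultures ran from -0.04 to 0.15 for Birc3 1421392_a_at, -0.01 to 0.13 for Birc3 1425223_at and -0.06 to 0.10 for Tnfaip3.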

Other observations

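Markers of neural cell types were measured beside the pathway genes. CD95L-T4 called 0 markers of neural stem cells (10 measured), neurons (7), astrocytes (5) or the oligodendrocyte lineage (6) in either RNA fraction by limma, with 0, 1, 0 and 0 at an unadjusted p under 0.05 in total RNA and 2, 1, 0 and 0 on polysomes. Between fractions in control cultures, 2 of 10 neural stem cell markers were higher on polysomes and 5 lower, against 33.5% and 23.2% of all genes, with a median of -0.29 against 0.10 over all genes.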
